A study of Homo sapiens with 12 samples.

Results

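The epithelial-mesenchymal transition (EMT) genes described here were 10 genes that mark or regulate the exchange of epithelial for mesenchymal traits: the epithelial markers CDH1 and EPCAM, the mesenchymal markers CDH2, VIM and FN1, and the transcription factors ZEB1, ZEB2, SNAI1, SNAI2 and TWIST1. Their rows were found by gene symbol, and each had 1 row among the 58735 rows of a gene count table from A549 cells. All 10 were among the 17829 genes that passed the filter on low counts. SNAI2 passed it only through the control libraries and ZEB2 only through the GFI1 libraries, while EPCAM passed it through libraries of both lines. A549 is a human lung adenocarcinoma line that grows attached, and GFI1 is a zinc-finger transcriptional repressor best known from blood cell development. The 4 groups of 3 RNA-Seq libraries were attached control cells, attached GFI1-expressing cells, floating control cells and floating GFI1-expressing cells. Attached cells were grown on culture-treated plates and floating cells on ultra-low attachment plates for 48 h. GFI1 was carried by a lentiviral vector with a human PGK promoter and a GFP marker by which transduced cells were sorted. The labels did not say whether control cells carried an empty vector, whether the lines were clonal, or whether libraries of a group came from separate cultures, so all p-values measure the spread between these libraries, which may be technical.

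In an EMT, a cell gives up the cell-cell junctions of an epithelium, of which E-cadherin (CDH1) is the core adhesion molecule, and takes on a vimentin cytoskeleton, a fibronectin matrix and often N-cadherin (CDH2). The ZEB, SNAI and TWIST factors drive the change. ZEB and SNAI proteins bind E-box sequences and repress CDH1. SNAI1 and SNAI2 carry the same kind of SNAG repressor domain as GFI1, through which such proteins recruit the LSD1 and CoREST corepressors. Epithelial cells normally also depend on contact with a matrix, which suspension culture removes.

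The libraries held 17014188 to 20748677 counts each, with 6.15% to 7.11% of counts from mitochondrial genes. GFI1 itself had 4 to 12 counts in the control libraries and 5154 to 12796 in the GFI1 libraries. This fits the control or GFI1 part of every label and does not check attached against floating. Counts of an introduced GFI1 cDNA and of the cell's own gene were not separated. Among the floating GFI1 libraries, replicate 3 stood apart on the second principal component (-13.56, against -20.63 and -23.86 for replicates 1 and 2). Some values that rest on these libraries are therefore also given without single libraries. Keratins were read as a sign of epithelial cells, which does not identify A549. KRT8 averaged 5769 CPM and KRT18 2670 CPM in attached control cells (CPM, the count scaled to the TMM-adjusted library size). In attached GFI1 cells they averaged 1853 and 662 CPM. The summed level of 9 lung epithelial markers was 10264 to 10868 CPM in attached control, 4220 to 4335 in attached GFI1, 6446 to 6850 in floating control and 3042 to 3411 in floating GFI1 libraries. Nearly all of this sum was KRT8, KRT18 and KRT7, so it does not describe the other members. From attached control to attached GFI1 cells, KRT19 went from 1.11 to 1.97 CPM, NAPSA from 2.30 to 2.50 and NKX2-1 from 0.208 to 0.793. SFTPA1, SFTPB and SFTPC had at most 14 counts in any library. The surfactant gene SFTPA1 never exceeded 3 counts. Among 9 fibroblast markers, whose summed level was 7.89 to 15.7 CPM, DCN and FAP had no count in any library. The 7 blood cell markers summed to 0.551 to 1.64 CPM, with CD3E at 0 throughout and PTPRC at no more than 1 count. The 6 endothelial markers summed to 0.326 to 1.09 CPM in control and 4.11 to 5.67 CPM in GFI1 libraries, and the difference was almost all CDH5 (VE-cadherin) and VWF. KDR had at most 1 count.

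GFI1 expression in attached cells was accompanied by lower levels of both epithelial markers and of all 3 mesenchymal markers. CDH1 was 18.6-fold lower, VIM 8.53-fold, EPCAM 3.75-fold, CDH2 3.26-fold and FN1 2.29-fold lower. The transcription factors moved in both directions, with SNAI1, ZEB2 and ZEB1 higher, SNAI2 lower and TWIST1 without a detectable difference. In all, 9 of the 10 genes had an adjusted p of 0.05 or less (quasi-likelihood F-test in edgeR, Benjamini-Hochberg over all 17829 genes), against 62.3% of all genes tested in the same comparison. Of these, 3 were higher (background 29.5%) and 6 lower (background 32.8%). SNAI2 and ZEB2 passed the filter only through the groups where they were high. With them and EPCAM, which had fewer than 10 counts in some libraries, left out, 7 genes had at least 10 counts in every library. Of these 7, 6 were called, 2 higher and 4 lower, in each culture. With a 2-fold difference required as well, ZEB1 dropped out in both cultures and 8 genes remained in each. Shares of all genes under these stricter rules are not given here, so nothing is read from these counts. In floating cells GFI1 moved the same 9 genes in the same directions, with backgrounds of 60.4% in all, 29.3% higher and 31.1% lower. Since 62.3% and 60.4% of all genes were called too, that most EMT genes were called does not set them apart, and their sizes are the description that follows. The median log2 fold change of all genes tested was -0.01 in attached and 0.01 in floating cells. Scaling by library size alone moved these medians up by 0.15 and 0.13 and the share of calls that were higher from 47.4% to 61.5% and from 48.5% to 61.4%, and the 9 calls and their directions remained. Because these are bulk samples, fewer cells expressing a gene and less RNA per cell cannot be told apart.

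**Figure D1:**
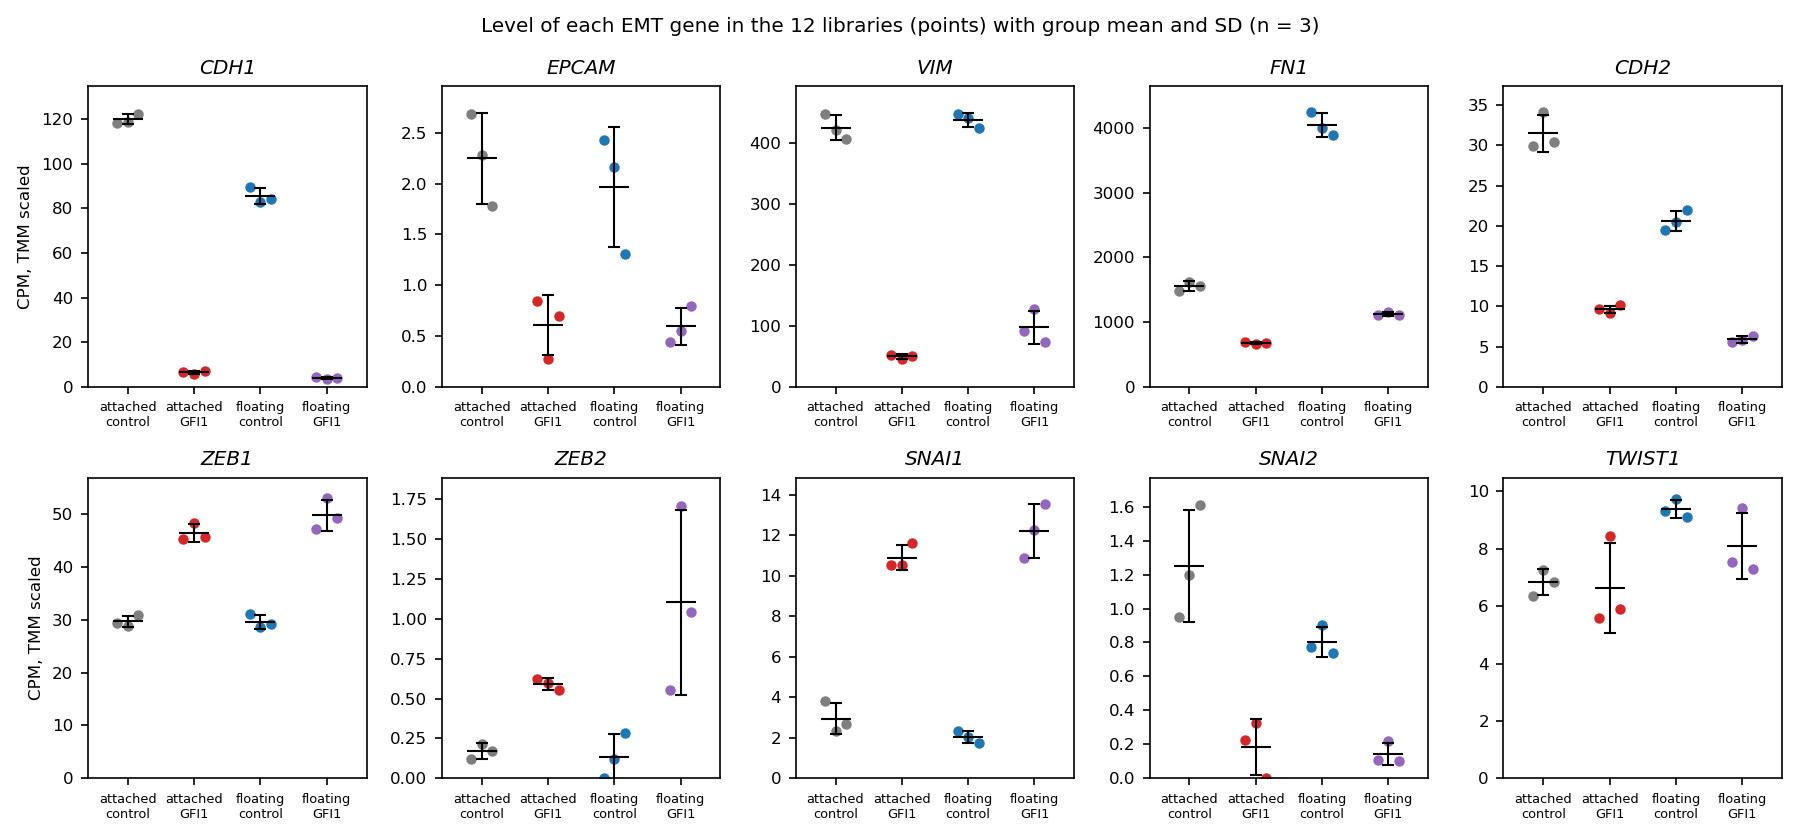
Level of each of the 10 EMT genes in CPM (linear axis from 0, 1 scale per gene) in the 12 libraries. Points are libraries, horizontal bars are group means and whiskers are SD (n = 3). CDH1 ran from 118 to 122 CPM in attached control and from 3.64 to 4.25 CPM in floating GFI1 libraries, while TWIST1 lay between 5.58 and 9.75 CPM in all.

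CDH1 (ENSG00000039068, chromosome 16, 68737225 to 68835548, plus strand, GRCh38) encodes the epithelial adhesion molecule E-cadherin. It stood at 118, 119 and 122 CPM in attached control, 6.48, 5.77 and 7.11 in attached GFI1, 89.4, 82.8 and 84.0 in floating control, and 4.25, 3.64 and 4.08 in floating GFI1 libraries. No group overlapped another, and the order of levels was attached control, floating control, attached GFI1, floating GFI1. The GFI1 effect was a log2 fold change of -4.22 ± 0.07 (SE, adjusted p = 3.23e-25, edgeR) in attached cells, and it was -4.42 ± 0.08, or 21.4-fold, when cells floated (adjusted p = 1.1e-24). Per kilobase of the gene model, its level lay above 83.2% of the 13761 protein-coding genes tested in attached control cells and above 22.1% in attached GFI1 cells.

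Suspension lowered CDH1 in both lines, by much less than GFI1 did. The log2 fold change from attached to floating was -0.49 ± 0.05 in control cells (edgeR, adjusted p = 1.06e-08) and -0.69 ± 0.11 in GFI1 cells (adjusted p = 2.2e-05). The interaction, which is the suspension effect in GFI1 cells minus that in control cells, was -0.20 ± 0.12 on the log2 scale (95% interval -0.45 to 0.05, adjusted p = 0.346).

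EPCAM (ENSG00000119888, chromosome 2, 47345158 to 47387601, plus strand) encodes an epithelial cell adhesion molecule used to recognise carcinoma cells. It was scarce in this line. Its counts were 45, 42 and 31 in attached control, 15, 6 and 14 in attached GFI1, 41, 36 and 23 in floating control, and 8, 10 and 16 in floating GFI1 libraries. The control and GFI1 libraries did not overlap in CPM in either culture, while attached and floating libraries of the same line did. The GFI1 effect was -1.91 ± 0.34 (SE, log2, edgeR adjusted p = 2.95e-05) in attached and -1.69 ± 0.35 (adjusted p = 0.000184) in floating cells. With so few counts the suspension effect was poorly bounded: -0.19 with a 95% interval of -0.79 to 0.40 in control cells, and 0.02 with an interval of -0.84 to 0.88 in GFI1 cells, both on the log2 scale.

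FN1 and VIM, 2 mesenchymal markers that GFI1 and suspension moved differently, had 1 promoter window each in RefSeq (GRCh38.p14), from 250 bases before to 50 after the annotated start, which are shown because the 2 genes gave the only called interactions among the 10. A set of 5 short motifs were searched on both strands: the E-box form CACCTG, the GFI1 core AATCAC, the cAMP response element TGACGTCA, the AP-1 site TGANTCA and the TEAD site GGAATG. They occurred in 20.6%, 10.2%, 1.85%, 7.71% and 14% of 35116 such windows of 27305 genes. Capitals mark a match.
FN1 (minus strand, chr2:215436019-215436318): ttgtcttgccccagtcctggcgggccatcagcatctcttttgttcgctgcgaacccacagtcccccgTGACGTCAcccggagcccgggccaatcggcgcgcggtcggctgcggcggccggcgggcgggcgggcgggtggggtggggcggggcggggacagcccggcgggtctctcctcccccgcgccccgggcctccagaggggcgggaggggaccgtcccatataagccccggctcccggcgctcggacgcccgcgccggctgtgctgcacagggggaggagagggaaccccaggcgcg
VIM (plus strand, chr10:17227991-17228290): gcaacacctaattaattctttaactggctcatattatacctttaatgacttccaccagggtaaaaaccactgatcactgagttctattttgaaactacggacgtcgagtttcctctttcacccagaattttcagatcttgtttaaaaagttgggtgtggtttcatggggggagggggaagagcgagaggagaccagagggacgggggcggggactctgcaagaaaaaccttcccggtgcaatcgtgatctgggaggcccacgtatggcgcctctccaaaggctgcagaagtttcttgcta
The FN1 window held a cAMP response element from -183 to -176 bases relative to the start and none of the other 4 motifs. None of the 5 strings of letters was found in the VIM window. The FN1 window was 76.7% G or C and the VIM window 48%. Matches to different motifs did not overlap. A match is a string of letters and was not tested as a site.

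VIM (ENSG00000026025, chromosome 10, 17228259 to 17237593, plus strand) encodes vimentin, the intermediate filament of mesenchymal cells. Its level was 449, 422 and 408 CPM in attached control and 449, 442 and 426 CPM in floating control libraries. The attached GFI1 libraries held 52.7, 46.1 and 51.3 CPM, and the floating GFI1 libraries 91.2, 128 and 74.3 CPM. The control groups overlapped each other and were far above both GFI1 groups, which did not overlap. GFI1 lowered VIM, and the log2 fold change was -3.09 ± 0.11 in attached cells (SE, edgeR adjusted p = 3.69e-18) and -2.17 ± 0.10 when they floated (adjusted p = 1.88e-15).

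Suspension left VIM without a detectable difference in control cells, at 0.04 ± 0.10 on the log2 scale (95% interval -0.16 to 0.24, adjusted p = 0.77, edgeR). In GFI1 cells VIM rose 1.96-fold with suspension, a log2 fold change of 0.97 ± 0.11 (adjusted p = 2.21e-07). Leaving out single libraries gave 0.712 to 1.135 for this value. The 2 suspension effects differed by 0.93 ± 0.15 (interaction, adjusted p = 0.000108), and VIM was the only one of the 10 genes with a higher called interaction, against 4.76% of all genes. The size rested in part on floating GFI1 replicate 2: without it the interaction was 0.67 (adjusted p = 1.91e-07), and without replicate 3 it was 1.09 (adjusted p = 3.61e-09). In the floating GFI1 libraries GFI1 itself stood at 545, 706 and 430 CPM, in the same order as VIM, and above the 286 to 294 CPM of the attached GFI1 libraries. The suspension effect on GFI1 in GFI1 cells was 0.95 ± 0.10 on the log2 scale (edgeR adjusted p = 2.38e-08). Its part in the VIM difference was not tested.

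FN1 (ENSG00000115414, chromosome 2, 215360440 to 215436172, minus strand) encodes fibronectin, an extracellular matrix glycoprotein that integrins bind. It was among the most abundant transcripts, above 97.4% of protein-coding genes per kilobase in attached control cells. The libraries held 1475, 1623 and 1561 CPM in attached control, 687, 667 and 679 in attached GFI1, 4245, 4004 and 3889 in floating control, and 1105, 1157 and 1111 in floating GFI1. The 4 groups did not overlap, and floating control was highest. GFI1 lowered FN1, and the log2 fold change was -1.20 ± 0.04 in attached cells (SE, edgeR adjusted p = 8.81e-18) and -1.85 ± 0.05 when they floated (adjusted p = 1.37e-21).

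Suspension raised FN1 in both lines, 2.61-fold in control cells (log2 fold change 1.38 ± 0.04, edgeR adjusted p = 8.02e-18) and 1.66-fold in GFI1 cells (0.73 ± 0.04, adjusted p = 3.69e-12). The rise was smaller in GFI1 cells, with an interaction of -0.65 ± 0.06 (adjusted p = 6.69e-08), against 6.01% of genes with a lower called interaction. FN1 and VIM thus differed between the lines in opposite directions. With 2 of 10 called, the interaction stood beside a background of 10.8% in either direction.

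CDH2 (ENSG00000170558, chromosome 18, 27950966 to 28177446, minus strand) encodes N-cadherin, which often replaces E-cadherin in an EMT. It was at 29.9, 34.2 and 30.5 CPM in attached control, 9.63, 9.23 and 10.1 in attached GFI1, 19.5, 20.5 and 21.9 in floating control, and 5.57, 5.79 and 6.37 in floating GFI1 libraries. No group overlapped another, in the same order as for CDH1. The GFI1 effect was -1.71 ± 0.08 on the log2 scale (SE, edgeR adjusted p = 2.61e-15) in attached and -1.80 ± 0.10 (adjusted p = 1.24e-14) in floating cells. Suspension lowered CDH2, with log2 fold changes of -0.61 ± 0.08 in control cells (edgeR adjusted p = 4.95e-07) and -0.70 ± 0.10 in GFI1 cells (adjusted p = 7.27e-06), with an interaction of -0.09 (95% interval -0.36 to 0.17).

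The balance between markers within a library was read per kilobase of gene model, which removes library scaling. The CDH1 to CDH2 ratio was 2.79 to 3.22 in attached control and 3.07 to 3.68 in floating control libraries, so E-cadherin transcripts outnumbered N-cadherin transcripts. In GFI1 libraries it was 0.501 to 0.563 attached and 0.504 to 0.611 floating, so the order of the cadherins was inverted although both had fallen. Attached and floating libraries of the same line overlapped in this ratio. The VIM to CDH1 ratio was 3.99 to 4.54 in attached control, 6.01 to 6.39 in floating control, 8.64 to 9.74 in attached GFI1 and 21.8 to 42.1 in floating GFI1 libraries, without overlap between groups. The FN1 to VIM ratio was near 1 in attached control libraries (0.980 to 1.15), 2.70 to 2.82 in floating control and 3.88 to 4.31 in attached GFI1 libraries. In the floating GFI1 libraries it spread from 2.69 to 4.46 and overlapped the last 2 groups.

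**Figure D2:**
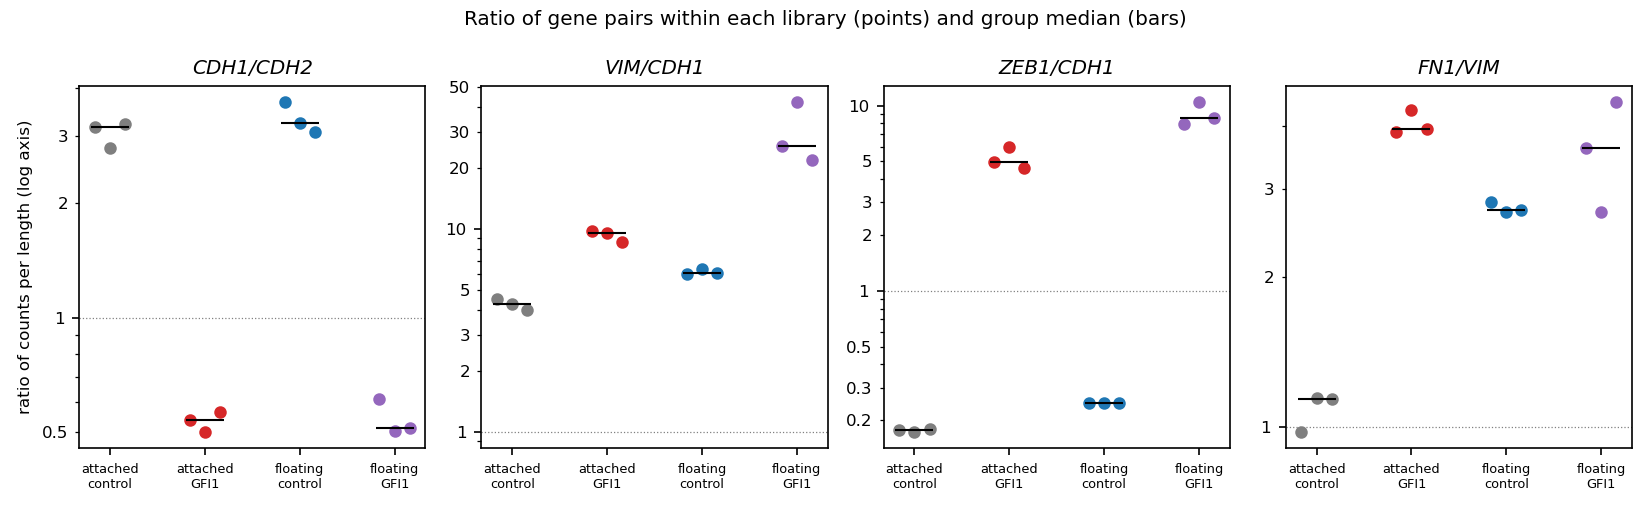
Ratios of CDH1 to CDH2, VIM to CDH1, ZEB1 to CDH1 and FN1 to VIM, as counts per kilobase of gene model (log axis), in each of the 12 libraries, with the group median as a bar and a dotted line at 1. CDH1 to CDH2 lay above 1 in every control library and below 1 in every GFI1 library.

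ZEB1 (ENSG00000148516, chromosome 10, 31318495 to 31529814, plus strand) encodes a zinc-finger homeobox repressor of CDH1. RefSeq (GRCh38.p14) listed 7 promoter windows for it, and the one with the most E-boxes is shown because E-boxes are what ZEB and SNAI proteins bind. Capitals mark the 3 matches to CACCTG or its reverse complement.
ZEB1 (plus strand, chr10:31318966-31319265): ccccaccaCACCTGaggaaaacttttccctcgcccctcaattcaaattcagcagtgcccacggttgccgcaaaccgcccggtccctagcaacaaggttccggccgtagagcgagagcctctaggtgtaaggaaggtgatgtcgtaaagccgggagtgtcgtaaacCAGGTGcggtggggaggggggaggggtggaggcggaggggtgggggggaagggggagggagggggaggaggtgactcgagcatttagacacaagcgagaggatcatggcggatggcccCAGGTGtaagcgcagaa
These lay at -242 to -237, -85 to -80 and 34 to 39 bases from that start. Another ZEB1 window held 1 E-box and 1 TEAD site, and the other 5 held none of the 5 motifs. Of the windows of CDH2 (2) and ZEB2 (1), only the second of CDH2 held a match, an AP-1 site from -102 to -96. The GFI1 core letters AATCAC were found in none of the 12 windows of CDH2, VIM, FN1, ZEB1 and ZEB2, the 5 genes of the 10 that were matched by symbol.

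ZEB1 was at 29.4, 28.8 and 30.9 CPM in attached control and 31.0, 28.6 and 29.1 CPM in floating control libraries. The attached GFI1 libraries held 45.2, 48.2 and 45.6 CPM, and the floating GFI1 libraries 47.0, 52.9 and 49.2 CPM. Both GFI1 groups lay above both control groups, while attached and floating libraries of a line overlapped. GFI1 raised ZEB1 by 0.64 ± 0.06 on the log2 scale in attached cells (SE, edgeR adjusted p = 7.1e-10), and 0.75 ± 0.06 when they floated (adjusted p = 4.37e-11). Suspension changed it by 0.00 ± 0.06 in control cells, with a 95% interval of -0.14 to 0.13. The ZEB1 to CDH1 ratio per kilobase went from 0.173 to 0.180 in attached control libraries to 4.58 to 5.97 in attached GFI1 libraries. The antisense gene ZEB1-AS1, which overlaps ZEB1, had 14.2% as many counts as ZEB1 and was itself higher with GFI1 in attached cells (0.43 ± 0.15, edgeR adjusted p = 0.0153). Whether counting used strand was not stated, so reads of the 2 genes cannot be told apart.

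ZEB2 (ENSG00000169554, chromosome 2, 144364364 to 144524583, minus strand) encodes the paralog of ZEB1 and was close to the detection limit. It had 2, 4 and 3 counts in attached control, 11, 13 and 11 in attached GFI1, 0, 2 and 5 in floating control, and 10, 31 and 21 in floating GFI1 libraries. The GFI1 and control libraries did not overlap in CPM. The GFI1 effect was 1.75 ± 0.60 on the log2 scale (95% interval 0.51 to 2.99, edgeR adjusted p = 0.014) in attached cells and 2.95 ± 0.57 (interval 1.76 to 4.13, adjusted p = 8.59e-05) in floating cells. Without attached control replicate 1 the former was 1.56 (adjusted p = 0.0551) and no longer passed. The value in floating cells was 4.06 (adjusted p = 8.15e-05) without floating control replicate 3 and 2.39 (adjusted p = 0.00102) without floating control replicate 1. Without floating GFI1 replicate 2 it was 2.51 (adjusted p = 0.000812). Its level per kilobase stayed below that of almost all protein-coding genes tested, at percentile 0.203 in attached control and 1.08 in floating GFI1 cells.

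SNAI1 (ENSG00000124216, chromosome 20, 49982999 to 49988886, plus strand) encodes SNAIL, a SNAG-domain repressor of CDH1. Its level was 3.81, 2.34 and 2.70 CPM in attached control, 10.5, 10.5 and 11.6 in attached GFI1, 2.31, 2.05 and 1.76 in floating control, and 10.9, 12.2 and 13.5 in floating GFI1 libraries. The GFI1 groups overlapped each other and lay well above both control groups. GFI1 raised SNAI1 3.71-fold in attached cells (log2 fold change 1.89 ± 0.15, edgeR adjusted p = 3.47e-11) and 5.99-fold when they floated (2.58 ± 0.16, adjusted p = 2.64e-13). Suspension lowered it in control cells, with a log2 fold change of -0.53 ± 0.20 (adjusted p = 0.0382), a call that was lost without attached control replicate 1 (-0.31, adjusted p = 0.276), floating control replicate 2 (-0.53, adjusted p = 0.0768) or floating control replicate 3 (-0.43, adjusted p = 0.147). In GFI1 cells the value was 0.17 ± 0.12 (adjusted p = 0.323). The interaction of 0.69 ± 0.23 (adjusted p = 0.0568) did not pass, and passed without attached control replicate 2 (0.84, adjusted p = 0.0265) or floating GFI1 replicate 1 (0.76, adjusted p = 0.0456).

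SNAI2 (ENSG00000019549, chromosome 8, 48917604 to 48921740, minus strand) encodes SLUG, the paralog of SNAI1, and moved the other way. It had 16, 22 and 28 counts in attached control and 13, 15 and 13 counts in floating control libraries. With GFI1 the counts were 4, 7 and 0 attached and 2, 4 and 2 floating. Control and GFI1 libraries did not overlap in CPM, and the GFI1 libraries were near the floor of 3 counts. The GFI1 effect was -2.72 ± 0.49 on the log2 scale (95% interval -3.73 to -1.70, edgeR adjusted p = 3.39e-05) in attached and -2.44 ± 0.57 (interval -3.61 to -1.27, adjusted p = 0.000618) in floating cells. The former was -3.48 (adjusted p = 3.77e-05) without attached GFI1 replicate 2 and -2.14 (adjusted p = 0.000261) without attached GFI1 replicate 3. For suspension of control cells the value was -0.64 (interval -1.44 to 0.16, adjusted p = 0.206), although the groups did not overlap.

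TWIST1 (ENSG00000122691, chromosome 7, 19020991 to 19117672, minus strand) encodes a basic helix-loop-helix factor that promotes N-cadherin expression. It was the one gene of the 10 without a called GFI1 effect. The libraries held 6.37, 7.28 and 6.83 CPM in attached control, 5.58, 8.45 and 5.91 in attached GFI1, 9.31, 9.75 and 9.12 in floating control, and 7.56, 9.43 and 7.31 in floating GFI1. GFI1 and control libraries overlapped in both cultures. The GFI1 effect was -0.03 (95% interval -0.33 to 0.27, edgeR adjusted p = 0.871) in attached and -0.22 (interval -0.50 to 0.06, adjusted p = 0.175) in floating cells, on the log2 scale. Suspension raised it 1.37-fold in control cells (0.46 ± 0.14, adjusted p = 0.0105), without overlap of the groups. The value in GFI1 cells was 0.27 ± 0.14 (adjusted p = 0.148), and the interaction of -0.19 did not show a difference between the lines (interval -0.59 to 0.22, adjusted p = 0.637).

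Suspension thus moved 5 of the 10 genes in control cells, beside 40.1% of all genes tested: FN1 and TWIST1 rose (background 19.6%) and CDH1, CDH2 and SNAI1 fell (background 20.5%). In GFI1 cells it moved 4, beside 31.3%: VIM and FN1 rose (background 15.0%) and CDH1 and CDH2 fell (background 16.3%). CDH1, CDH2 and FN1 had the same direction in both lines. These comparisons share libraries with the GFI1 comparisons, so the values stand side by side without a test of their likeness.

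**Figure D3:**
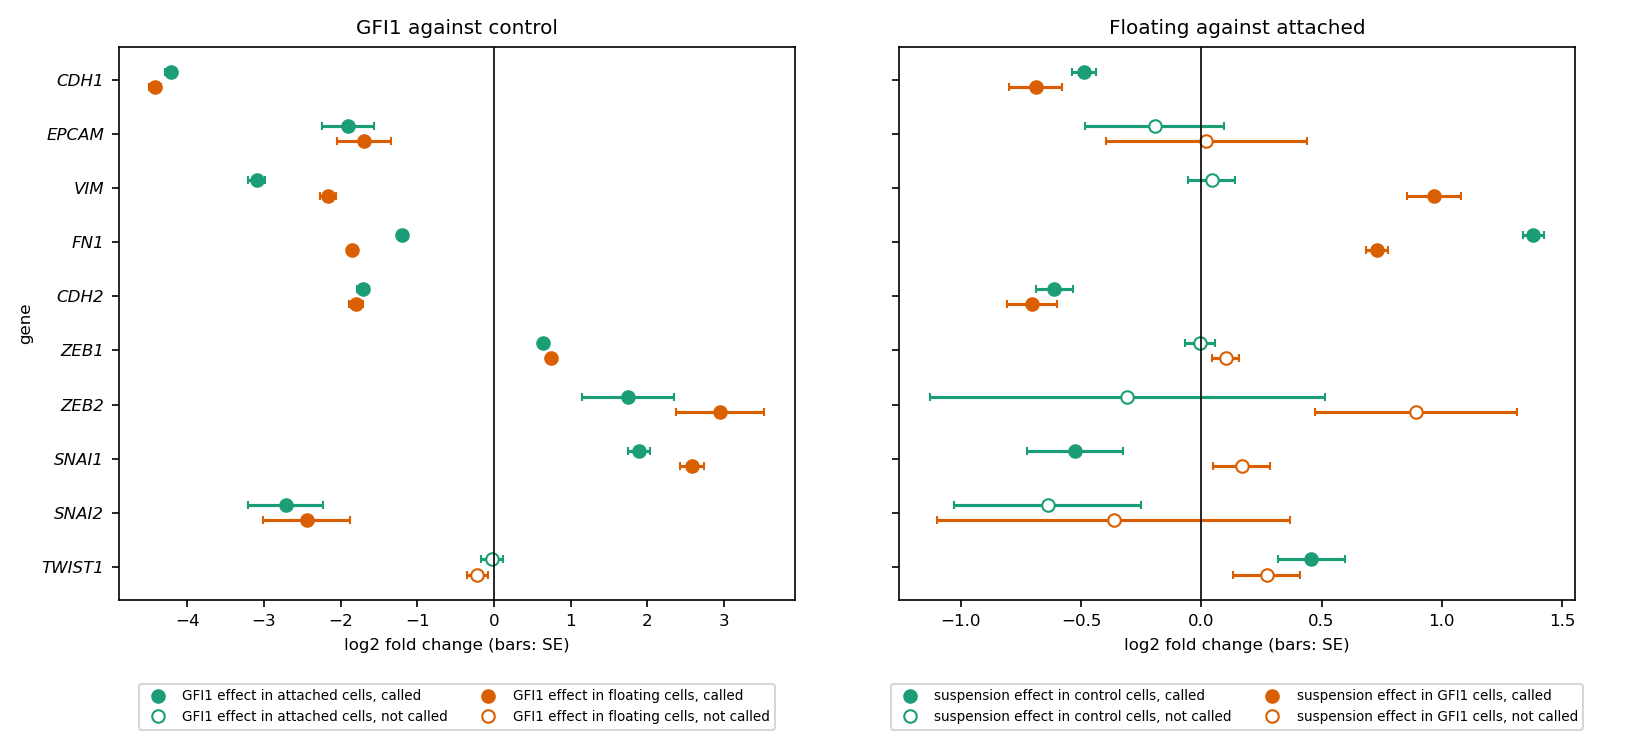
Log2 fold changes of the 10 EMT genes, GFI1 against control on the left and floating against attached on the right. Points are edgeR estimates, bars are SE, and filled points have an adjusted p of 0.05 or less. CDH1 lay at -4.22 and -4.42 on the left and at -0.49 and -0.69 on the right, and only VIM and FN1 differed between the lines on the right by a called interaction.

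The wider set of epithelial adhesion and junction genes did not move as one with CDH1. Of 31 tested genes, 8 were higher and 18 lower with GFI1 in attached cells (edgeR, adjusted p of 0.05 or less), beside 29.5% and 32.8% of all genes, with a median log2 fold change of -0.28 beside -0.01 for all genes. With library size alone 9 were higher and 13 lower, with a median of -0.13. In these lists, genes are ranked only among called genes whose mean log2 CPM reached 1. On that basis the 2 lowest were DSC2, a desmosomal cadherin, at -2.93 ± 0.30, and OCLN, the tight junction protein occludin, at -2.24 ± 0.16. The 2 highest were MUC1, an epithelial surface mucin, at 1.89 ± 0.10, and F11R, the junctional adhesion molecule JAM-A, at 1.81 ± 0.08. MUC1 went from 7.81 ± 1.23 to 28.8 ± 0.90 CPM (SD, n = 3) and F11R from 15.5 ± 0.32 to 54.6 ± 2.27 CPM, while DSC2 fell from 4.68 ± 0.29 to 0.605 ± 0.39 CPM. In floating cells 4 of the 31 were higher and 16 lower with GFI1, beside 29.3% and 31.1% of all genes. Suspension raised 10 and lowered 7 in control cells, beside 19.6% and 20.5%, with MUC1 (1.75 ± 0.10) and the tight junction scaffold TJP3 (1.03 ± 0.08) highest and CLDN1, a claudin (-0.73 ± 0.05), and KRT7, a simple-epithelium keratin (-0.71 ± 0.04), lowest.

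Regulators of epithelial identity were likewise mixed. Of 14 tested, 4 were higher and 7 lower with GFI1 in attached cells, beside 29.5% and 32.8% of all genes, with a median of -0.53 on the log2 scale (-0.39 with library size alone), and the same counts were found in floating cells. Among called genes whose mean log2 CPM reached 1, EHF, an epithelial ETS factor, was lowest at -3.56 ± 0.11 (edgeR adjusted p = 2.27e-19), from 57.6 ± 3.77 to 4.86 ± 0.63 CPM, followed by KLF4 at -1.83 ± 0.10 (adjusted p = 2.08e-14). HNF4A (0.93 ± 0.15) and the pioneer factor FOXA1 (0.86 ± 0.09), which act in endodermal epithelia, were highest at that level. With suspension in control cells 7 were higher and 2 lower, beside 19.6% and 20.5% of all genes, with HNF4A at 0.72 ± 0.16 and KLF5 at 0.61 ± 0.04.

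Beyond VIM, FN1 and CDH2, 29 other mesenchymal markers were tested. GFI1 raised 13 and lowered 10 of them in attached cells, beside 29.5% and 32.8% of all genes. In floating cells it raised 12 and lowered 10, beside 29.3% and 31.1%. The medians were 0.10 and 0.14 on the log2 scale (0.25 and 0.27 with library size alone). Of the 29, 2 passed the low-count filter only through the GFI1 libraries and 1, PDGFRA, only through the control libraries. Nothing is therefore read from these counts. NT5E, the ecto-nucleotidase CD73, fell from 62.7 ± 2.79 to 4.95 ± 0.76 CPM (log2 fold change -3.67 ± 0.09, edgeR adjusted p = 8.34e-22), and COL5A2, a fibrillar collagen chain, from 257 ± 4.67 to 26.8 ± 2.08 CPM (-3.26 ± 0.06, adjusted p = 3.81e-24). The matrix proteins SPARC (1.36 ± 0.23) and TNC (1.18 ± 0.10) were highest among called genes whose mean log2 CPM reached 1, and PDGFRB (3.99 ± 0.44) and WNT5A (1.61 ± 0.33), both below that level, lay higher and passed the low-count filter only through the GFI1 libraries. Suspension in control cells raised 9 and lowered 7, beside 19.6% and 20.5% of all genes. LOX, the collagen crosslinking enzyme, rose from 6.80 ± 0.13 to 46.4 ± 1.02 CPM and the collagenase MMP2 from 10.1 ± 1.47 to 20.5 ± 1.13 CPM, while COL5A1 fell from 240.3 ± 7.80 to 70.9 ± 0.78 CPM and FSTL1 from 68.8 ± 3.44 to 33.4 ± 0.80 CPM.

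Of 20 other cadherins listed, 9 were tested. With GFI1, 6 were higher and 2 lower in attached cells, beside 29.5% and 32.8% of all genes, and the same counts were found in floating cells, beside 29.3% and 31.1% (6 and 1 with library size alone). Of the 6, CDH5, CDH9, CDH15 and CDH26 passed the low-count filter only through the GFI1 libraries, where they were high, so nothing is read from this count, and all 4 had a mean log2 CPM below 0. Those whose mean log2 CPM reached 1 included CDH16, the kidney cadherin, at 2.69 ± 0.22 (0.882 to 5.72 CPM), and CDH24 at 0.42 ± 0.07. The intestinal cadherin CDH17 was at -1.77 ± 0.12 and CDH4 at -1.69 ± 0.13. Suspension in control cells raised 4 and lowered 2, beside 19.6% and 20.5% of all genes, with CDH16 at 2.25 ± 0.24, CDH17 at 1.95 ± 0.09, CDH4 at -1.43 ± 0.13 and CDH24 at -0.58 ± 0.08.

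**Figure D4:**
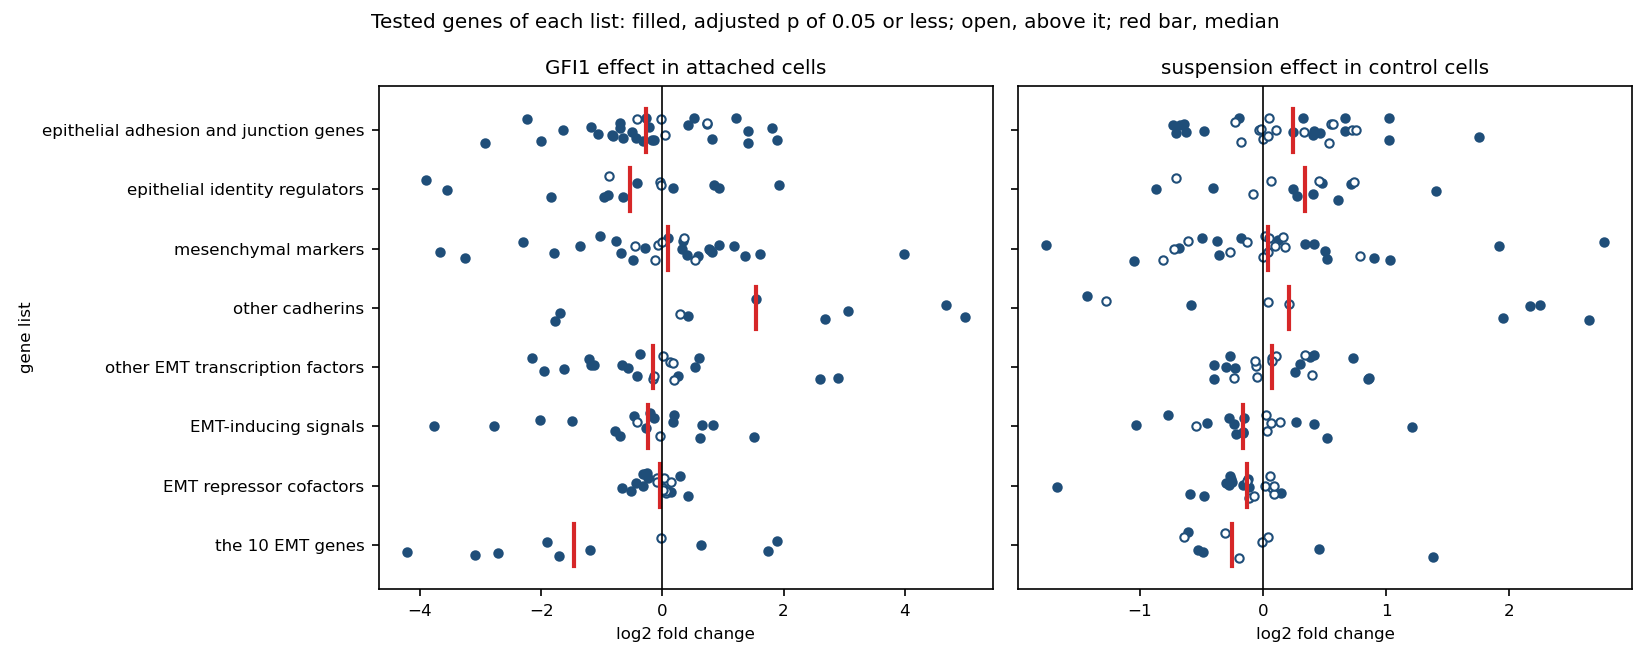
Log2 fold changes of the tested genes of 7 lists and of the 10 EMT genes, for GFI1 in attached cells (left) and suspension in control cells (right). Each point is a gene, filled where the adjusted p is 0.05 or less, and the red bar is the list's median. Every list except the EMT repressor cofactors reached beyond 1 in both directions on the left.

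The other EMT transcription factors included both higher and lower genes. Of 21 tested, 5 were higher and 10 lower with GFI1 in attached cells, beside 29.5% and 32.8% of all genes, while 7 rose and 11 fell in floating ones, beside 29.3% and 31.1%. The medians were -0.16 and -0.25 on the log2 scale. With library size alone they were -0.01 and -0.12, with 7 higher and 10 lower in attached cells and 9 and 10 in floating cells. RUNX2, an osteoblast factor, rose from 4.92 ± 0.63 to 37.0 ± 0.96 CPM (2.90 ± 0.09, edgeR adjusted p = 1.12e-19) and the forkhead factor FOXC2 from 1.14 ± 0.21 to 6.93 ± 0.30 CPM. TWIST2, the paralog of TWIST1, fell from 12.5 ± 0.51 to 2.77 ± 0.40 CPM (-2.16 ± 0.16, adjusted p = 1.05e-11), and ID3, an inhibitor of helix-loop-helix factors, from 238 ± 17.1 to 61.4 ± 4.49 CPM. Suspension in control cells raised 7 and lowered 5, beside 19.6% and 20.5% of all genes, and among called genes whose mean log2 CPM reached 1, ID1 (0.86 ± 0.07) and ID2 (0.73 ± 0.07) were highest and YBX1 (-0.40 ± 0.04) lowest.

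The list of signals tied to EMT held ligands and receptors together with SMAD proteins and the TGF-beta pathway inhibitors SMAD7, SKI and SKIL. Of 18 tested, GFI1 raised 6 and lowered 10 in attached cells, beside 29.5% and 32.8% of all genes, and raised 5 and lowered 8 in floating cells, beside 29.3% and 31.1%. The 6 were the ligands TGFB1 and TGFB3, the signal mediator SMAD4, and the 3 inhibitors. The medians were -0.23 and -0.12 on the log2 scale (-0.08 and 0.01 with library size alone). Among the TGF-beta ligands, TGFB1 rose from 165 ± 7.42 to 468 ± 14.9 CPM (1.51 ± 0.06, edgeR adjusted p = 1.21e-16) and TGFB3 by 0.83 ± 0.21, whereas TGFB2 fell from 72.1 ± 1.37 to 10.4 ± 1.64 CPM (-2.78 ± 0.08, adjusted p = 4.05e-20). The MET ligand HGF was lowest at -3.78 ± 0.18. Suspension in control cells raised 4 and lowered 9, beside 19.6% and 20.5% of all genes, with HGF (1.21 ± 0.10) and TGFBR2 (0.52 ± 0.04) highest and TGFB2 (-1.03 ± 0.07) and FGFR1 (-0.77 ± 0.04) lowest.

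The list of EMT repressor cofactors held corepressors of SNAI and ZEB proteins. It also held GSK3B, BTRC, FBXL14 and FBXO11, which take part in SNAIL turnover instead. Log2 fold changes with GFI1 lay between -0.66 (PRMT5, attached cells) and 0.57 (AJUBA, floating cells). Of 20 tested, 3 were higher and 8 lower with GFI1 in attached cells, beside 29.5% and 32.8% of all genes, while 9 rose and 6 fell in floating ones, beside 29.3% and 31.1%, with medians of -0.04 and 0.04 on the log2 scale. With library size alone the attached counts became 10 higher and 6 lower, with a median of 0.11, so this list had no settled direction. RCOR1, the CoREST scaffold, was at 0.42 ± 0.05 and GSK3B, the kinase that marks SNAIL for degradation, at 0.29 ± 0.04. The methyltransferases PRMT5 (-0.66 ± 0.05) and EZH2 (-0.52 ± 0.05) were lowest. Suspension in control cells raised only HDAC1 (0.15 ± 0.05) and lowered 11, beside 19.6% and 20.5% of all genes. Among the 11 were AJUBA, a LIM-domain partner of SNAIL (-1.67 ± 0.06), and SUV39H1 (-0.60 ± 0.07). Of 3 tested antisense and divergent neighbours, 1 was higher and 1 lower with GFI1 in attached cells, beside 29.5% and 32.8% of all genes. None was called in floating cells, beside 29.3% and 31.1%.

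For each EMT gene, the protein-coding genes whose log2 CPM followed it most closely over the 12 libraries were ranked by Pearson's r, as a description, since libraries of 1 group share their treatment. CDH1 was followed most closely by PTGFRN (r = 0.999), AP1M2 (0.998) and MORC4 (0.998), EPCAM by ALDH18A1, HSBP1 and EML6 (0.969 to 0.957), and CDH2 by ECT2, FKBP1A and HMGCS1 (0.996 to 0.995). The nearest genes were ABHD3, PFKFB3 and F2RL1 for VIM (0.992 to 0.991), TFPI, LPGAT1 and ETV4 for FN1 (0.995 to 0.994) and DYRK1A, PDGFB and OSR1 for ZEB1 (0.992 to 0.991). For SNAI1 they were TRIM22, PYGO2 and CSGALNACT1 (0.992 to 0.988), for ZEB2 AQP11, TAF1 and ACTR1B (0.971 to 0.943), for SNAI2 MFAP3L, SIMC1 and SLC25A30 (0.969 to 0.953) and for TWIST1 BBS9, RBAK and C8orf58 (0.926 to 0.909).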

How the data were processed

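Counts of sequenced fragments per gene were deposited by the authors for 12 libraries, and they are raw counts without normalization. RNA was poly-A selected and sequenced on an Illumina NovaSeq instrument. Per the methods of the study, reads were aligned to GRCh38 by Hisat2 and counted by featureCounts, whereas the submitters' processing notes name Bowtie2 and HTSeq, so which pair made the counts is unsettled. The annotation release and the strand setting were not given in the sources used here. Gene positions and lengths are those of the count table.

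Groups and replicate numbers follow the sample labels. The analysis used edgeR 4.0.16 and limma 3.58.1 under R 4.3.3. Genes were kept by filterByExpr over the 4 groups (minimum count 10, minimum total 15), libraries were scaled by TMM, and a single quasi-likelihood fit with a mean for each of the 4 groups covered all 12 libraries (biological coefficient of variation 4.86%). The 5 contrasts were tested, two-sided, each adjusted by Benjamini-Hochberg over 17829 genes, and called at 0.05 without a fold threshold. Log2 CPM used a prior count of 2. Levels per kilobase are CPM divided by gene length. A group with at most 3 counts in each library would be at the floor, which none of the 10 genes was in any group. At these totals a gene with few counts (EPCAM, ZEB2, SNAI2) has a wide counting error. The script recovered known changes in simulated data for the GFI1 contrast of attached cells alone. Far fewer genes were changed there than were called here, and equally in both directions. That simulation therefore cannot test the scaling under changes as wide as these, and the other contrasts were not simulated.

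The 10 genes and the 8 pathway and 4 cell type lists were chosen with earlier results of these data known. From each pathway list, the text names the 2 highest and 2 lowest called genes whose mean log2 CPM reached 1 in the GFI1 contrast of attached cells and the suspension contrast of control cells; 2 genes that this rule names are not reported here. The 4 low-level cadherins and KRT8, KRT18 and other cell type markers were named outside that rule. For each EMT gene, the 3 protein-coding genes with the highest Pearson correlation are named. DESeq2 1.42.0, other scalings, other filters, a fit on the compared groups alone, a replicate block and leaving out each library were the alternatives. Replicate numbers did not pair the libraries. The other scalings were applied to the gene lists after the data had been seen.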

Additional observations from a re-analysis of the deposited data

Results flagged for a closer look

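The suspension effect differed between GFI1 and control cells for 2 of the 10 genes by the interaction test of edgeR. For VIM the suspension effect was higher in GFI1 cells by 0.9252 on the log2 scale (adjusted p = 0.000108). For FN1 it was lower in GFI1 cells, with an interaction of -0.6508 (adjusted p = 6.69e-08). Leaving out each library in turn gave 0.67 to 1.09 for VIM and -0.69 to -0.61 for FN1. In the floating GFI1 libraries VIM was at 97.8 ± 27.5 CPM (SD, n = 3) and FN1 at 1124 ± 28.2 CPM, so VIM varied more relative to its mean.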

How the results depend on the processing

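Of 1023 values recomputed for 50 fold changes of the 10 genes, 986 kept their direction and their side of the threshold. The 9 genes called with GFI1 in attached and in floating cells kept their direction under every alternative in which they were tested, and on leaving out single libraries only the call of ZEB2 in attached cells was lost, without attached control replicate 1. A further requirement of a 2-fold difference left 8 genes in each GFI1 comparison (ZEB1 was lost in both), 1 gene (FN1) for suspension in control cells, 0 for suspension in GFI1 cells and 0 for the interaction. Replicate numbers did not pair the libraries (same-number correlations of deviations from -0.031 to 0.031), and with the replicate block the counts of called genes were 9, 9, 5, 4 and 2, as without it. A filter of 10 counts in every library dropped EPCAM, ZEB2 and SNAI2 and left 6 of 7 genes called in each GFI1 comparison. No share of all genes under the 2-fold requirement or this filter is given here, so nothing is read from these counts. The directions that turned were all of values that did not pass the threshold. TWIST1 with GFI1 in attached cells was 0.0221 with upper quartile scaling, 0.1173 with library size alone and 7e-04 with only the groups compared, and -0.25 to 0.078 with single libraries left out. ZEB1 with suspension in control cells was 0.0024 with DESeq2 and with RLE size factors, 0.0153 with upper quartile scaling, 0.0161 with library size alone and 0.0083 with the strict filter, and -0.0418 to 0.022 with single libraries left out. Leaving out single libraries also gave -0.38 to 0.033 for EPCAM and -1.42 to 0.25 for ZEB2 with suspension in control cells, -0.35 to 0.32 for EPCAM and -0.93 to 0.40 for SNAI2 with suspension in GFI1 cells, and interactions of -0.15 to 0.52 for EPCAM, -0.29 to 1.04 for SNAI2 and -0.32 to 0.0415 for TWIST1. SNAI1 with suspension in control cells did not pass with only the groups compared (-0.52, edgeR adjusted p = 0.0561). Its interaction passed without a low-count filter (0.71, adjusted p = 0.0394) and with robust empirical Bayes (0.69, adjusted p = 0.0422). Uncalled values that passed without 1 library were TWIST1 with GFI1 in floating cells without floating GFI1 replicate 2 (-0.33, adjusted p = 0.0474), ZEB2 with suspension in GFI1 cells without floating GFI1 replicate 1 (1.19, adjusted p = 0.0392) and TWIST1 with suspension in GFI1 cells without attached GFI1 replicate 2 (0.50, adjusted p = 0.00809). The cause was not tested. EPCAM, ZEB2 and SNAI2 had the fewest counts of the 10 genes.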
